A study of Homo sapiens with 4 samples.

Results

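The genes described here are 39 genes of the hypoxia response and of glycolysis, listed by symbol and read on 4 microarrays of PC3 and DU145 prostate cancer cells with or without knockdown of ESS2. The members were listed for what the genes do, without a rule on their values, but with earlier results of these data known. Of the 39 genes, 38 had at least 1 probe whose RefSeq accession could be matched to the symbol, out of 25121 genes matched in this way on the arrays. ALDOA had no matched probe, so its mRNA is not analysed here and only its promoter windows enter the counts below. The 38 genes were covered by 49 probes, and 11 of them had several.

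When oxygen is plentiful, prolyl hydroxylases mark the alpha subunits of the hypoxia-inducible factor (HIF) for destruction. When oxygen is short the alpha subunits persist, pair with ARNT and activate genes for glucose uptake, glycolysis, blood vessel growth, pH control and removal of mitochondria. Most HIF control acts on the protein, so the mRNA of an alpha subunit does not report how much HIF protein a cell holds. Many cancer cell lines keep this program partly active in normal air, together with a high rate of glycolysis that ends in lactate.

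PC3 and DU145 are androgen-insensitive human prostate cancer lines. PC3-shC and DU145-shC cells carried an shRNA against luciferase, and PC3-shESS2 and DU145-shESS2 cells carried an shRNA against ESS2, a nuclear protein also known as DGCR14. The labels describe lentiviral transduction, whereas the study's methods describe plasmid transfection followed by puromycin selection, and that for PC3 only. Every group, controls included, had thus carried a vector, while selection is described for PC3 alone. All cells were grown in RPMI1640 with serum in an ordinary CO2 incubator, and no low-oxygen culture is described. Each group is 1 culture on 1 array, so differences within a line have no replicates behind them and carry no p-value. Both arrays of a line shared 1 slide and scan, and the slide, the scan and the version of the scanner software differ between the lines, so line and slide cannot be told apart.

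Relative signal below means the background-subtracted signal of a probe divided by the 75th percentile of its array, and log2 ratio means the log2 of relative signal in shESS2 over that in shC cells. Probes differ in brightness for the same amount of RNA, so levels are compared between arrays and never between probes. Among probes spotted 10 times per array, the log2 ratio between single spots had a median SD of 0.079 in both lines, which covers spotting error only and not the cells or the hybridization. The targeted gene ESS2 had a relative signal of 0.506 in PC3-shC, 0.185 in PC3-shESS2, 0.404 in DU145-shC and 0.0794 in DU145-shESS2 cells, 2.74-fold and 5.09-fold lower with the shRNA.

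Most of the hypoxia and glycolysis genes had a higher signal with ESS2 knockdown in each line, by small amounts. In PC3, 37 members could be compared and 28 were higher in PC3-shESS2, where 44.3% of the 16764 genes compared were higher. The median log2 ratio of the members was 0.29, against −0.055 over all genes. In DU145, 28 of 36 members were higher in DU145-shESS2, where 47.2% of 16842 genes were, and the median log2 ratio was 0.22, against −0.022 over all genes. With the arrays scaled to GAPDH, which lowers every ratio in PC3 alike, 22 members were higher in PC3 and 26 in DU145. The median over all genes was then −0.24 in PC3 and −0.066 in DU145, and the shares of all genes above do not belong to these counts. Differences past 2-fold were few. In PC3, 3 members were higher by more than 2-fold (BNIP3, ENO2 and ANKRD37; 3.88% of all genes) and 1 was lower (VEGFA; 3.87% of all genes). In DU145, 3 were higher (NDRG1, PFKFB4 and KDM3A; 2.36% of all genes) and 1 was lower (ADM; 2.47% of all genes). Of these, ANKRD37, VEGFA, PFKFB4 and KDM3A did not stay past 2-fold under every setting. SLC2A1 lay just inside that limit in PC3 and EGLN3 just inside it in DU145.

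**Figure D1:**
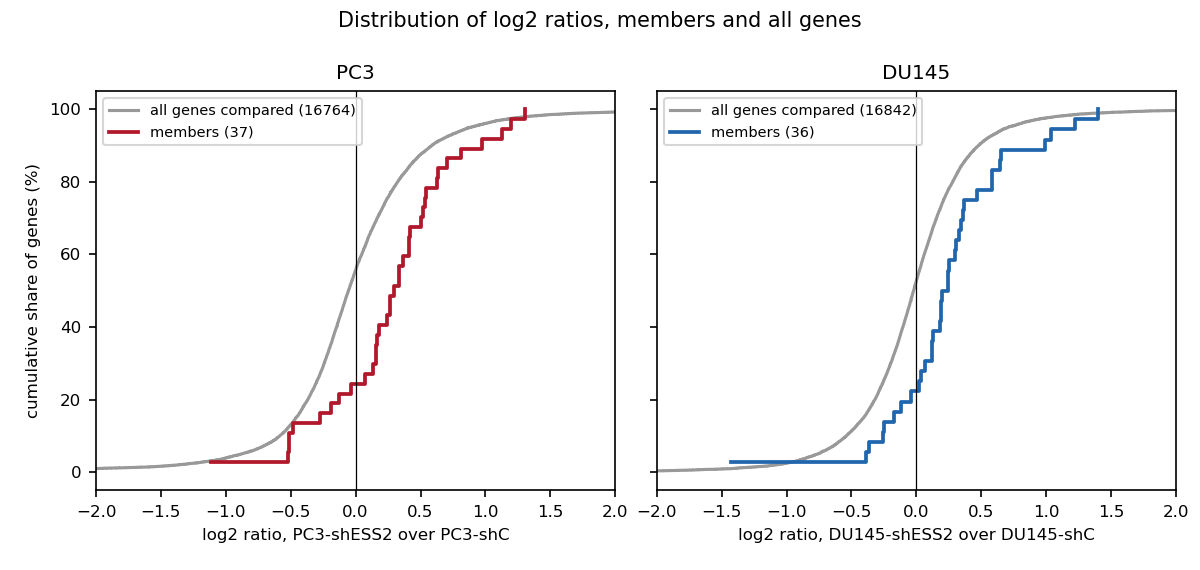
Cumulative share of genes (y axis, percent) at or below each log2 ratio of shESS2 over shC (x axis) in PC3 (left) and DU145 (right), for all genes compared (grey) and for the members (coloured), with 1 array per condition. In both panels the curve of the members lies to the right of the grey curve over most of its length, with medians of 0.29 and 0.22, and each curve has 1 member far to the left, VEGFA in PC3 and ADM in DU145.

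HIF binds DNA at hypoxia response elements with the core letters ACGTG or GCGTG. The promoter windows of 5 members are shown so that their sequence can be read beside their values: the 3 that were higher by more than 1.5-fold in both lines (ANKRD37, KDM3A and EGLN3), BNIP3 with the largest ratio in PC3, and ADM, whose ratios differed most between the lines. Each holds the 250 bases before the RefSeq start site on GRCh38.p14, 5′ to 3′ on the strand of the gene, with each ACGTG or GCGTG on either strand in capitals (CACGT and CACGC are the same letters on the other strand, and CACGTG holds ACGTG on both). ANKRD37 lies at chr4:185396591-185396840 (plus strand), BNIP3 at chr10:131981924-131982173 (minus strand), the downstream of 2 KDM3A windows at chr2:86441211-86441460 (plus strand), ADM at chr11:10304823-10305072 (plus strand) and EGLN3 at chr14:33951075-33951324 (minus strand).
ANKRD37: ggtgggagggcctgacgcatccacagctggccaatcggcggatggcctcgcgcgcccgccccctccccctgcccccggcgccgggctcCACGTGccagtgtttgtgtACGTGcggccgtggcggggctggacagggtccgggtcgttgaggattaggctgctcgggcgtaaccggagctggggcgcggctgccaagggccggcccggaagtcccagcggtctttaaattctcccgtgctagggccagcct
BNIP3: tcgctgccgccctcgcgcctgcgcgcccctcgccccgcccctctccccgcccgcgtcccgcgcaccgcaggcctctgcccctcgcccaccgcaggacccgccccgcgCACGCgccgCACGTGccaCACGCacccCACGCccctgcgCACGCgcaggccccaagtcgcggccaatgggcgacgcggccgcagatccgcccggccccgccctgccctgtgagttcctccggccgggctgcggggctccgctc
KDM3A: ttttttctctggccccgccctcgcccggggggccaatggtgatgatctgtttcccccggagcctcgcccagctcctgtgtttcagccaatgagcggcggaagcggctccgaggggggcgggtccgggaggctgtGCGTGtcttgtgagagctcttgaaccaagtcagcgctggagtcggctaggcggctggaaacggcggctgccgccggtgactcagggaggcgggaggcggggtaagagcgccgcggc
ADM: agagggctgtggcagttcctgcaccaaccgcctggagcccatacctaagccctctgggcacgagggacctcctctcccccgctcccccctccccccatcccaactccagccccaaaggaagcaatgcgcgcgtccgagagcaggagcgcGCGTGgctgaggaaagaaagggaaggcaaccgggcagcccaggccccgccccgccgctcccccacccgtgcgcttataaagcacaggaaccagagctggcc
EGLN3: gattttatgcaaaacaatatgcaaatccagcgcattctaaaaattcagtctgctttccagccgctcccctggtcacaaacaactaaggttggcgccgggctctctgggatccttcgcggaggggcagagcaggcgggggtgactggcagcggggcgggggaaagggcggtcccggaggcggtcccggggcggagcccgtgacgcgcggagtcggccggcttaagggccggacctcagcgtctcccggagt
The window of BNIP3 held 6 matches and that of ANKRD37 held 3, counting a CACGTG once for each strand. KDM3A and ADM held 1 match each, and EGLN3 held none in this window. The genes were picked by their ratios, so these windows cannot show whether matches go with a ratio. Among members not shown, HK2 held 6 matches in 1 window, with log2 ratios of 0.34 in PC3 and 0.19 in DU145. LDHA held 5 in 1 window, with log2 ratios of 0.27 and 0.36. Any relation between matches and ratios was not tested.

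Promoter windows were found in RefSeq for 34 members, as 62 start sites. Entries for VEGFA, BNIP3L, NDRG1, SLC16A1 and SLC2A3 were not used here. By window, 58.1% of the members' windows held either core, against 43.2% of all 35116 promoter windows. The members' windows were also richer in CpG, with a median of 21 CpG against 11. Among the 13387 promoters within the middle CpG range of the members, 59.4% held either core. The members' share counts all their windows, also those outside that range, so the sets are not matched for CpG. Some members have several windows, partly overlapping, and 27 of the 34 members had a core in any of their windows. The separate shares were 33.9% for ACGTG and 33.9% for GCGTG in the members, 18.5% and 32.2% in all promoters, and 23.8% and 47.1% in the promoters within that CpG range.

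The mRNAs of the HIF subunits differed little, and HIF1A went in opposite directions in the lines. HIF1A, the oxygen-regulated alpha subunit, had a relative signal of 30.4 in PC3-shC, 21.8 in PC3-shESS2, 8.45 in DU145-shC and 10.6 in DU145-shESS2 cells, with log2 ratios of −0.48 and 0.33. Its probe was spotted 10 times on each array, and a probe elsewhere in the gene gave −0.34 and 0.34. The signal was therefore lower with knockdown in PC3 and higher in DU145 by either probe. EPAS1, which encodes HIF-2 alpha, had relative signals of 57.8, 52.8, 27.2 and 26.4 in the same order of arrays, and log2 ratios of −0.13 and −0.05. ARNT, the shared partner subunit, had relative signals of 0.338, 0.414, 1.18 and 1.46, and log2 ratios of 0.29 and 0.30. EPAS1 was thus nearly level in both lines and ARNT slightly higher in both.

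Of the prolyl hydroxylases that mark HIF for destruction, and which HIF itself induces, EGLN3 showed the larger difference in both lines. EGLN3 had a relative signal of 0.101 in PC3-shC, 0.177 in PC3-shESS2, 0.1297 in DU145-shC and 0.258 in DU145-shESS2 cells, higher with knockdown within each line. Its log2 ratios were 0.81 and 0.99, equal to 1.76-fold and 1.99-fold. This is a dim probe, and with normexp background correction, which adds an offset, the ratios were 0.24 and 0.46. EGLN1, the main hydroxylase in most cells, had log2 ratios of 0.37 and 0.19.

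Of the mitophagy and stress targets, 4 of 4 were higher in both lines, with median log2 ratios of 0.82 in PC3 and 0.65 in DU145. BNIP3, a mitochondrial outer membrane receptor for mitophagy, had relative signals of 54.8 in PC3-shC, 135 in PC3-shESS2, 26.0 in DU145-shC and 39.04 in DU145-shESS2 cells, for log2 ratios of 1.30 and 0.58. It was the member with the largest log2 ratio in PC3. Its relative BNIP3L had log2 ratios of 0.52 and 0.65, and a second probe gave 0.99 and 0.57. ANKRD37, an ankyrin repeat protein and a known HIF target, had relative signals of 2.25, 4.93, 0.437 and 0.683 in the same order, for log2 ratios of 1.13 and 0.65. NDRG1, a stress-responsive protein induced in low oxygen, had relative signals of 83.3, 111, 12.6 and 33.3, for log2 ratios of 0.42 and 1.40. NDRG1 was the member with the largest log2 ratio in DU145.

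**Figure D2:**
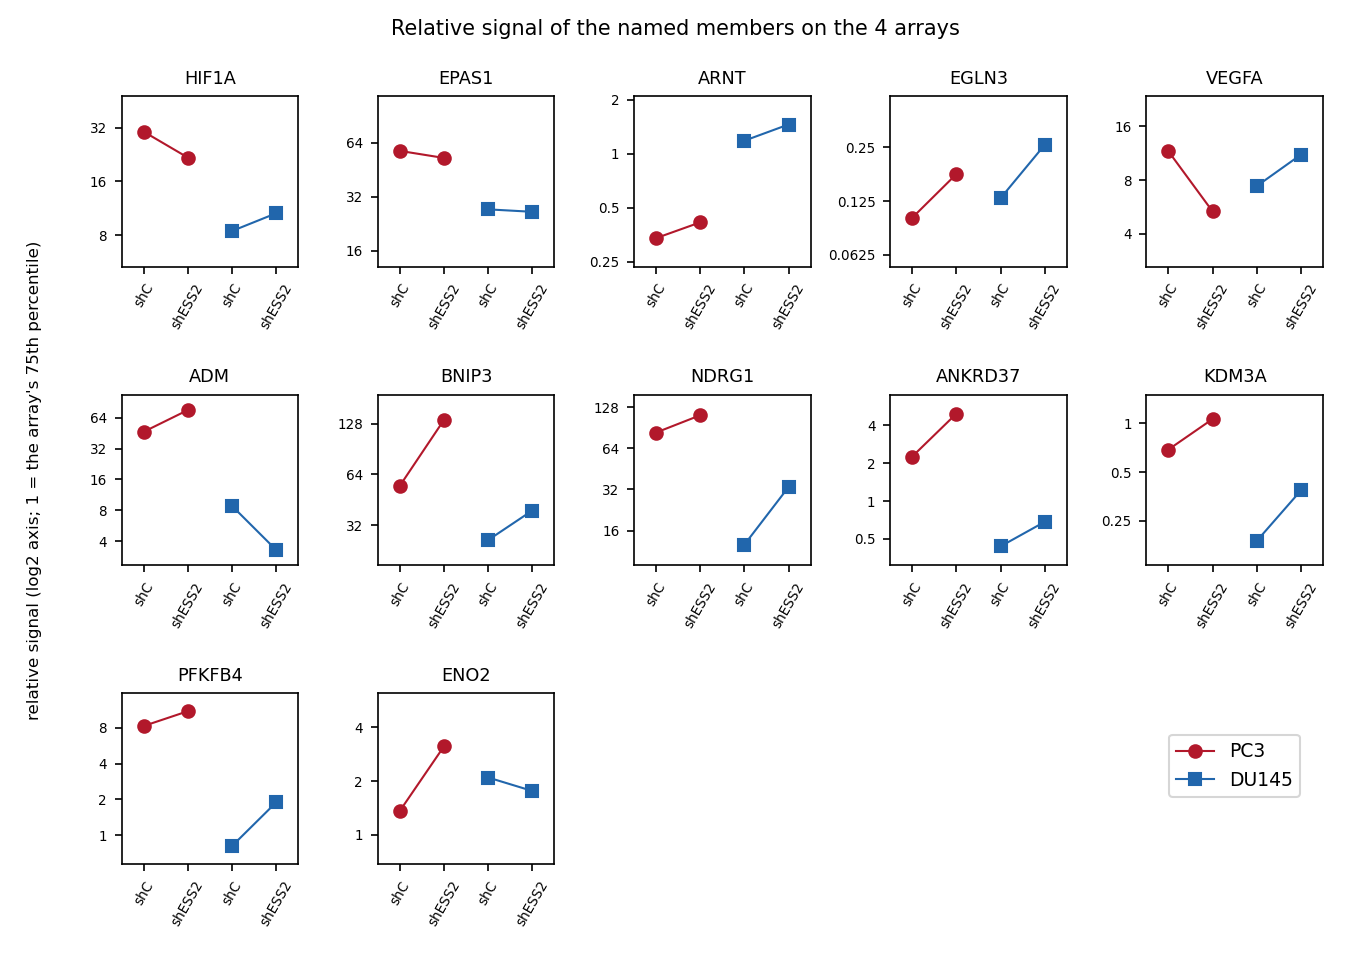
Relative signal (y axis, log2 scale, 1 being the 75th percentile of the array) of the 12 members given with values on every array, on the shC and shESS2 arrays of PC3 (red circles) and DU145 (blue squares), each point 1 array and each line joining the arrays of 1 cell line. EGLN3, BNIP3, NDRG1, ANKRD37, KDM3A, PFKFB4 and ARNT slope upward in both lines, whereas HIF1A, VEGFA, ADM and ENO2 slope in opposite directions.

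The secreted targets split between the lines. VEGFA, the main growth factor for blood vessels, had a relative signal of 11.6 in PC3-shC, 5.34 in PC3-shESS2, 7.41 in DU145-shC and 11.1 in DU145-shESS2 cells. Its log2 ratio was −1.12 in PC3 and 0.58 in DU145, and a further probe gave −0.82 and 0.71, so that both probes were lower with knockdown in PC3 and higher in DU145. ADM, which encodes the vasodilator peptide adrenomedullin, went the other way. Its relative signals were 46.6, 75.9, 8.85 and 3.30 in the same order, for log2 ratios of 0.70 and −1.43, and its probe was spotted 10 times on each array. Of the carbonic anhydrases, which control pH at the cell surface, CA9 was measured in PC3 only, with relative signals of 8.29 in PC3-shC and 5.79 in PC3-shESS2 cells and a log2 ratio of −0.52, and it was not well above background in DU145. CA12 had log2 ratios of 0.17 and −0.38.

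The dioxygenases that HIF induces were higher in both lines, 3 of 3 in each. KDM3A, which removes methyl groups from lysine 9 of histone H3, had relative signals of 0.688 in PC3-shC, 1.06 in PC3-shESS2, 0.188 in DU145-shC and 0.385 in DU145-shESS2 cells, for log2 ratios of 0.63 and 1.04. P4HA1 and P4HA2, the alpha subunits of the enzyme that hydroxylates collagen, had log2 ratios of 0.50 and 0.54 in PC3 and of 0.13 and 0.31 in DU145.

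No member of glucose uptake or of the first steps of glycolysis passed 2-fold, although SLC2A1 came close in PC3 and reached a log2 ratio of 1.06 under another setting. SLC2A1 (GLUT1), the most widespread glucose transporter, had relative signals of 20.2 in PC3-shC, 39.7 in PC3-shESS2, 8.44 in DU145-shC and 10.7 in DU145-shESS2 cells, for log2 ratios of 0.97 and 0.34. SLC2A3, which encodes GLUT3, was not well above background on any array by either of its probes. In upper glycolysis, from glucose to triose phosphate, 6 of 8 members were higher in each line, with medians of 0.16 in PC3 and 0.11 in DU145. The hexokinases HK1 and HK2, which trap glucose in the cell, had log2 ratios of 0.33 and 0.34 in PC3 and of −0.12 and 0.19 in DU145. The phosphofructokinase subunits did not share a direction. PFKL had log2 ratios of −0.27 in PC3 and 0.47 in DU145, PFKM had −0.52 and 0.02, and PFKP had 0.07 and −0.36. ALDOC, an aldolase isozyme, had 0.63 and 0.19, and GPI and TPI1, an isomerase each, lay between 0.04 and 0.18 in both lines.

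PFKFB3 and PFKFB4 make and break down fructose 2,6-bisphosphate, the strongest activator of phosphofructokinase, and PFKFB4 was higher in both lines. It had relative signals of 8.29 in PC3-shC, 11.03 in PC3-shESS2, 0.811 in DU145-shC and 1.89 in DU145-shESS2 cells, for log2 ratios of 0.41 and 1.22. PFKFB3 had log2 ratios of 0.26 and 0.12, and its dimmer probe gave 0.78 and −0.15. PFKFB3 was the only member whose measured probes differed in sign, in DU145. Probes had the same sign in 9 of 9 members with several measured probes in PC3 and in 8 of 9 in DU145.

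In lower glycolysis, from triose phosphate to pyruvate, 4 of 5 members were higher in each line, and only ENO2 passed 2-fold. ENO2, the neuronal enolase, had relative signals of 1.36 in PC3-shC, 3.13 in PC3-shESS2, 2.09 in DU145-shC and 1.76 in DU145-shESS2 cells, for log2 ratios of 1.20 and −0.25. It was higher with knockdown in PC3 and slightly lower in DU145. The common enolase ENO1 had log2 ratios of 0.54 and 0.07. PGK1, which makes ATP, had 0.16 and 0.25, and the mutase PGAM1 had 0.16 and 0.24, although its probe may also read the near-identical copy PGAM4. Pyruvate kinase PKM had −0.04 and 0.36. The sign of the small ratios of PFKP, GPI, TPI1, PGK1, PGAM1, PKM and CA12 in PC3, and of EPAS1, PFKFB3, PFKM and TPI1 in DU145, turned under at least 1 other scaling or setting. For all of these but PKM, EPAS1 and PFKFB3 the setting was scaling to GAPDH (for PFKP also scaling to the median), which lowers all ratios of a line by the same amount. These genes are counted above by their sign under the 75th percentile.

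At the end of the pathway, LDHA and LDHB differed in direction. LDHA, the lactate dehydrogenase subunit that HIF induces, had log2 ratios of 0.27 in PC3 and 0.36 in DU145, and a further probe gave 0.35 and 0.58. LDHB, the subunit usual in heart, had relative signals of 197 in PC3-shC, 138 in PC3-shESS2, 158 in DU145-shC and 132 in DU145-shESS2 cells, for log2 ratios of −0.52 and −0.26, and a further probe gave −0.53 and −0.36. LDHB and EPAS1 were the only members lower in both lines, and EPAS1 was so by less than the SD between spots in DU145. PDK1, a pyruvate dehydrogenase kinase, had log2 ratios of 0.24 and 0.12. The lactate exporters were mixed, with 0.41 and −0.17 for SLC16A1 (MCT1) and −0.19 and 0.24 for SLC16A3 (MCT4).

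**Figure D3:**
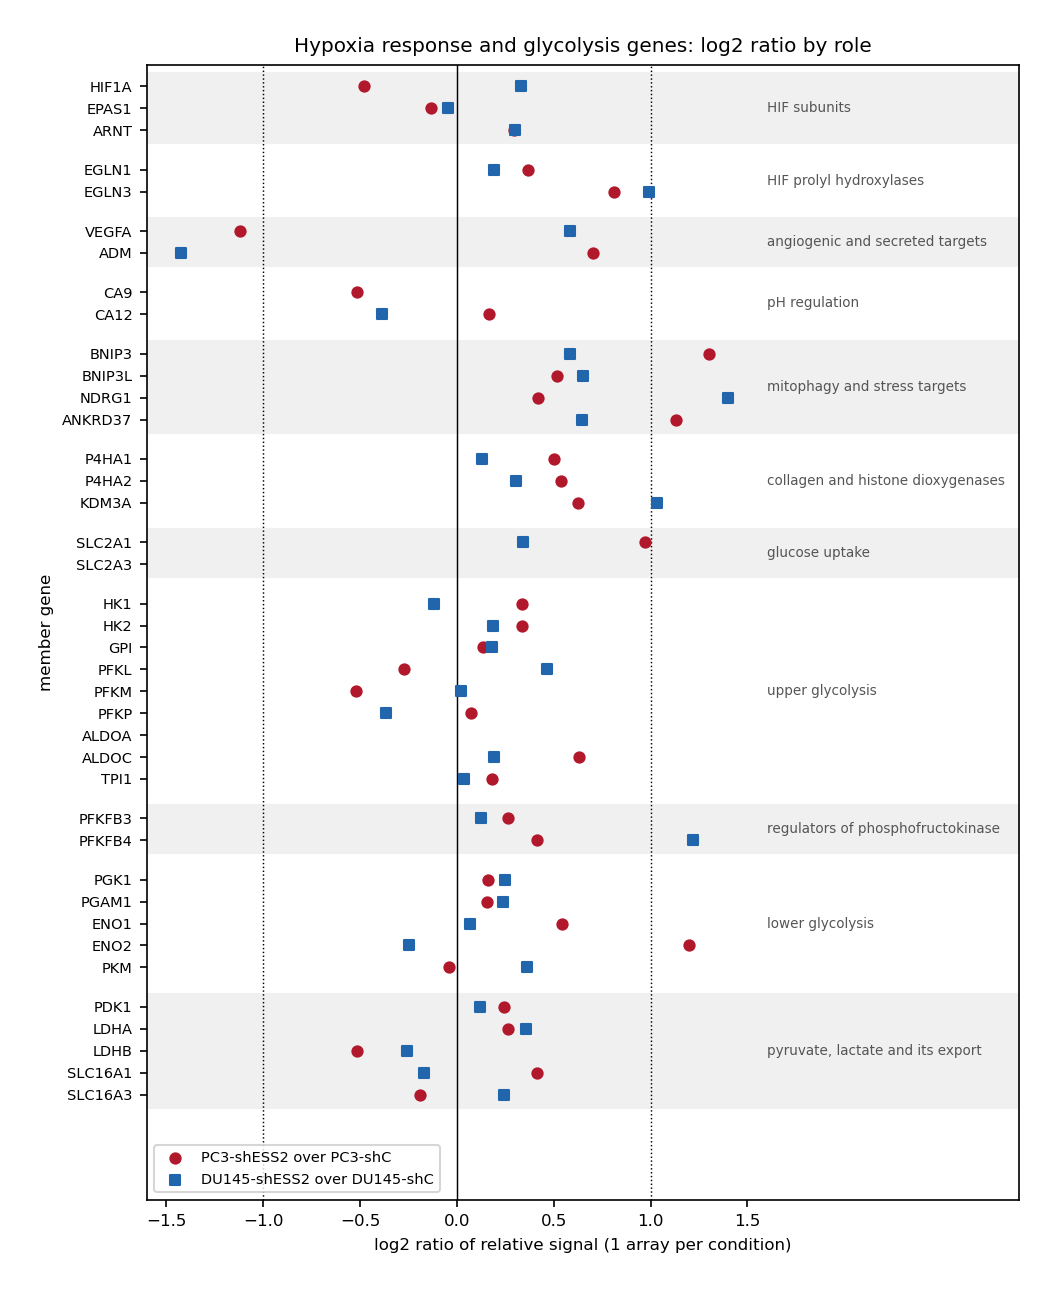
log2 ratio of shESS2 over shC (x axis) for each member, grouped by role, in PC3 (red circles) and DU145 (blue squares), 1 array per condition, with dotted lines at a 2-fold difference in either direction. The mitophagy and stress targets and the dioxygenases lie to the right of 0 in both lines, most glycolytic enzymes lie close to 0, and VEGFA in PC3 and ADM in DU145 lie farthest to the left; ALDOA and SLC2A3 have no point and CA9 has none in DU145.

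Across the lines, 36 members could be compared in both. Of these, 22 were higher with knockdown in both lines, where 23.7% of the 15478 genes compared in both were, 2 were lower in both (33.3% of all genes) and 12 differed in direction (43.0% of all genes). Only EGLN3, ANKRD37 and KDM3A were higher by more than 1.5-fold in each line, where 1.44% of all genes were. None of them kept to that limit under every setting: with normexp the log2 ratio of EGLN3 was 0.24 in PC3 and that of ANKRD37 was 0.45 in DU145, and with scaling to GAPDH that of KDM3A was 0.44 in PC3. With BNIP3 at 1.499-fold in DU145, just under that limit, and 2.47-fold in PC3, these were the members that came nearest to a shared difference. No member passed 2-fold in both lines, which 0.775% of all genes did, and 8 passed it in 1 of them, where 1393 of the 15478 genes passed it in 1 or both. A limma fit over all 4 arrays with the line as a block, in which the scatter between the lines is the error and 1 residual degree of freedom remains, tested 37 members among 17126 genes. After Benjamini-Hochberg adjustment at 0.05 it called 0 genes (0% of those tested) and 0 members, and the lowest adjusted p was 0.75. At an unadjusted p under 0.05, 1028 genes passed, and 2.91% of all genes passed and were higher. The 5 members that passed at that level were EGLN3, BNIP3, ANKRD37, KDM3A and BNIP3L, all of them higher, with mean log2 ratios of 0.90 ± 0.18, 0.94 ± 0.26, 0.89 ± 0.22, 0.83 ± 0.21 and 0.59 ± 0.18 (SE from limma). Their adjusted p was 0.75 for each, so the difference did not hold up for any of them.

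**Figure D4:**
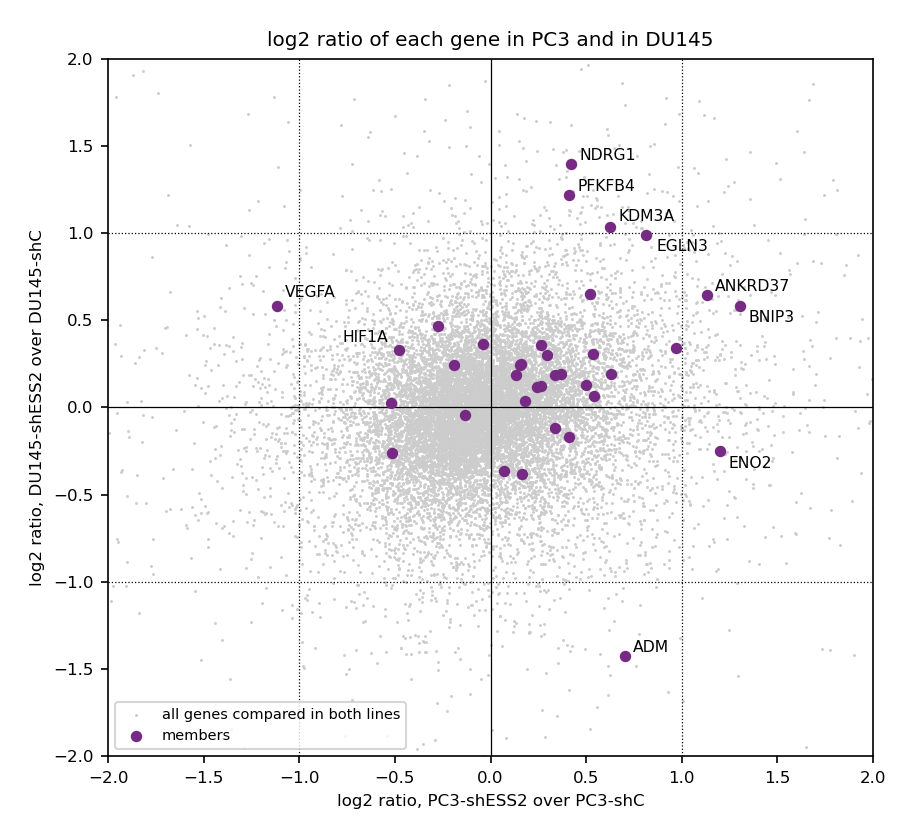
log2 ratio in PC3 (x axis) against log2 ratio in DU145 (y axis) for all genes compared in both lines (grey) and for the members (purple), within 2 log2 units of 0, with dotted lines at a 2-fold difference. Of 36 members, 22 lie above and to the right of 0 in both lines, and VEGFA, ADM and ENO2 lie far out on the sides where the lines differ in direction.

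The control arrays also differed between the lines. In PC3-shC cells 29 of 37 members had a higher relative signal than in DU145-shC cells, where 54.4% of 17475 genes did, and the median log2 ratio was 1.19 against 0.12 over all genes. By more than 2-fold, 22 members were higher in PC3-shC (22.1% of all genes) and 2 were lower (19.9% of all genes). CA9 was at least 203-fold higher in PC3-shC, since it was not well above background in DU145. PFKFB4 was 10.2-fold, NDRG1 6.59-fold, ADM 5.26-fold and HIF1A 3.60-fold higher in PC3-shC. ARNT, with a log2 ratio of −1.81, and PFKP, with −1.14, were the members lower by more than 2-fold. The size of this difference depended on the scaling, and the members' median ranged from 0.46 with the arrays scaled to GAPDH to 1.65 with the arrays scaled to their medians.

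Of 95 other genes of oxygen sensing, HIF targets, glycolytic side branches, the pentose phosphate pathway and pyruvate use, 94 had a matched probe. Of these, 42 of 80 (52.5%) were higher in PC3 at a median log2 ratio of 0.03, against 44.3% and −0.055 over all genes. In DU145, 56 of 83 (67.5%) were higher at a median of 0.13, against 47.2% and −0.022 over all genes. CITED2, LOX, BHLHE40 and TMEM45A were higher by more than 2-fold in both lines, which 0.265% of all genes were. CITED2, a HIF-induced protein that competes with HIF for its coactivators, had log2 ratios of 1.09 in PC3 and 1.76 in DU145. LOX, which cross-links collagen, had 1.69 and 1.85, BHLHE40, a transcriptional repressor, had 1.06 and 1.37, and TMEM45A had 1.23 and 1.43.

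Others of these genes passed 2-fold in 1 line only. In PC3 the largest was CXCR4, the receptor of the chemokine CXCL12, with relative signals of 0.076 in PC3-shC and 1.15 in PC3-shESS2 cells and a log2 ratio of 3.92, against 0.54 in DU145. INSIG2, which retains sterol sensors in the endoplasmic reticulum, had log2 ratios of 1.58 and 0.08, and LDHD, which oxidizes D-lactate, had 1.39 and 0.52. Lower by more than 2-fold in PC3 were LOXL2 (log2 ratio −1.19), the repressor BHLHE41 (−1.53) and FBP1 (−1.07), an enzyme of gluconeogenesis. In DU145 the glycoprotein STC2 (−1.498), the mitochondrial PCK2 (−1.31) and RPIA (−1.02) of the pentose phosphate pathway were lower by more than 2-fold. They were also lower in PC3, at −0.97, −0.58 and −0.69. PPP1R3C (1.18), which directs a phosphatase to glycogen, was higher in DU145. SLC2A12, a glucose transporter measured on the DU145-shESS2 array alone, had a log2 ratio of at least 1.47. The pentose phosphate genes had 2 of 7 members higher in PC3 and 3 of 7 in DU145, and the genes for pyruvate entry and use in mitochondria had 4 of 14 and 10 of 13. Over all genes, 44.3% were higher in PC3 and 47.2% in DU145.

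The reference gene GAPDH, itself a glycolytic enzyme, had log2 ratios of 0.18 and 0.04, and ACTB had 0.15 and −0.04. All 5 epithelial markers were well above background on every array, although the relative signal of EPCAM was 10.0 in DU145-shC and 1.64 in DU145-shESS2 cells (log2 ratio −2.61, against −0.38 in PC3). CTNNA1, which PC3 lacks, was well above background in DU145 only. The prostate luminal gene KLK3 was not well above background on any array. Of the markers of other cell types, 2 or 3 of 4 leukocyte, 1 or 2 of 5 fibroblast and 2 to 4 of 5 endothelial genes were well above background. The summed relative signal of the endothelial list, of which PECAM1 was 22.7-fold lower in PC3-shESS2, was 1.63 in PC3-shC, 0.378 in PC3-shESS2, 0.304 in DU145-shC and 0.342 in DU145-shESS2 cells. In the same order the sum was 1.11, 0.428, 0.985 and 1.49 for the leukocyte list, of which CD14 was 4.45-fold lower in PC3-shESS2, and 1.07, 0.872, 0.439 and 0.384 for the fibroblast list, of which LUM was 4.47-fold higher in PC3-shESS2. The part of such genes in the values of the members was not tested.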

How the data were processed

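The authors deposited the Agilent Feature Extraction output (12.1.0.3 for the PC3 arrays, 12.0.3.1 for the DU145 arrays, per the file headers) of 4 one-colour Cy3 arrays made from 0.1 µg of total RNA each, in which the intensity of each spot has its background subtracted and is not scaled between arrays. A deposited table of scaled intensity values equals these signals times 1 constant per array and served as an alternative. The genome build behind the array design is not given in the sources used here.

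Here control spots and outlier spots were left out, spots of a probe were averaged, and log2 values were taken minus the 75th percentile of each array (signals of 263, 290, 212 and 218 for PC3-shC, PC3-shESS2, DU145-shC and DU145-shESS2). Of 60901 non-control spots, 50.8 to 52.6% were well above background and 0 were saturated. Accessions were matched, without their version, to RefSeq genes of GRCh38.p14 for 35080 of 58201 probes. The brightest probe stood for a gene. A comparison needed a signal well above background on 1 or more of its arrays. A dimmer value was raised to the lowest signal well above background, and the ratio is then a bound. limma (3.58.1, R 4.3.3) was fitted to genes that were so on 2 or more arrays. Promoter sequences are from RefSeq. Tables and figures were made with Python 3.11.15 (pandas 2.3.3, numpy 2.4.6, matplotlib 3.10.9, scipy 1.17.1), and the calculations were tested on simulated data.

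The members, the list of 95 other genes and the tests were chosen with earlier results of these data known. Values on every array are given for members past 2-fold in a line, past 1.5-fold in the same direction in both, for HIF1A, EPAS1 and ARNT, and for the 5 members that differed most between the lines, 12 in all; LDHB, SLC2A1 and CA9 were added after their values were seen. Other pathway genes are named when past 2-fold. The alternatives were scaling to the median, to GAPDH or by quantiles, normexp with an offset of 50, other treatments of dim spots, of several probes and of outlier spots, the authors' table, and for limma also no block and other filters. Since the cell line is also the slide, no separate slide block was fitted.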

Additional observations from a re-analysis of the deposited data

Results flagged for a closer look

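VEGFA, ADM and ENO2 were past 2-fold in 1 line and lay in the other direction in the other, by more than the spread between spots. The difference between the lines was not tested, as each line has 1 array per condition. The log2 ratio in PC3 minus that in DU145 was −1.70 for VEGFA, which was lower with knockdown in PC3 and higher in DU145. It was 2.13 for ADM, higher in PC3 and lower in DU145, and 1.45 for ENO2, higher in PC3 and slightly lower in DU145.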

How the results depend on the processing

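No member past 2-fold changed sign under any of the 10 alternatives. BNIP3 and ENO2 in PC3 and NDRG1 and ADM in DU145 stayed past 2-fold in the same direction under every one. ANKRD37 in PC3 came to 0.95 with GAPDH scaling, PFKFB4 in DU145 to 0.98 with normexp, and KDM3A in DU145 to 0.99 with GAPDH scaling and 0.61 with normexp. SLC2A1 in PC3 and EGLN3 in DU145 passed 2-fold under 3 of the alternatives each, at up to 1.06 and 1.08. The median log2 ratio of the members in PC3 was 0.19 with median scaling, 0.11 with GAPDH scaling and 0.38 with the authors' table, against 0.29. These scalings moved all genes too, whose median in PC3 was −0.16, −0.24 and 0.035, and the genes past 2-fold were then 511 higher and 803 lower, 437 and 953, and 792 and 535, against 650 and 649. In PC3, 0 members were lower by more than 2-fold with quantile normalization or with the mean of a gene's probes, as VEGFA then came to −0.99 and −0.97. Over all genes, 618 of 16764 and 626 of 16788 were lower by that much under these settings. In DU145, 1 member was higher by more than 2-fold with normexp. The genes higher by that much in DU145 then numbered 139 of 16825, against 397 of 16842. Between the control arrays, members lower by more than 2-fold numbered 1 with median scaling, 6 with GAPDH scaling and 4 with the authors' table, and the median of the members was 1.65, 0.46 and 0.74 under these and 0.67 with quantile normalization, while the median of all genes was 0.58, −0.61, −0.33 and 0.022, and genes past 2-fold were 6132 higher and 2371 lower, 1786 and 6467, 2399 and 5159, and 3440 and 3489. Beyond the construction of each scaling, the cause was not tested.

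limma called 0 genes under each alternative, with 0 to 8 members and 16 to 1313 genes at an unadjusted p under 0.05. Leaving out 1 array at a time leaves no residual degree of freedom with the line as a block, and without it the fit called 0 genes. The labels carry no replicate numbers, and the line as a block is the pairing the design allows. With 1 array per condition, precision is limited by the number of arrays, and dim probes such as EGLN3 shrink under an added offset. The other values of single members moved by more than the spread between spots in 161 cases and by less in 569.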
